A study of Mus musculus with 4 samples.

Results

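Circular RNAs (circRNAs) that do not follow the common pattern of several joined exons were described in mouse N2a cells, a neuroblastoma line. They were every circRNA of the deposited table that its annotation placed in 1 of 5 types: a single exon, exon with intron, intron only, intergenic sequence, or the strand opposite a gene (antisense). The 5 types held 397 of the 2253 circRNAs in the table, or 17.6%: 153 single-exon, 137 exon-intron, 39 intronic, 36 intergenic and 32 antisense circRNAs. The other 1856 were multi-exon circRNAs. The type of each circRNA was the authors' own and no read count was used to choose it.

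The series held 4 libraries, of which the 2 from total RNA with ribosomal RNA removed carried the circRNA reads. 1 library came from N2a cells and 1 from N2a-Mn cells, which received 300 µM manganese in MEM medium for 48 h; the other 2 libraries held small RNA from the same conditions. The labels give the same treatment text for all 4 libraries, so the sample titles alone separate untreated from Mn-treated cells. They name the strain as C57BL/6 and no genotype, age or passage. With 1 library per group there is no spread between samples, so no test was made: intervals are exact 95% binomial intervals that cover counting error only, and a difference between the libraries cannot be told apart from a difference between cultures or preparations. PCR copies were not separated from independent molecules.

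A circRNA forms when the spliceosome joins the donor end of an exon back to an acceptor upstream of it, and the closed ring lacks the free ends that exonucleases attack. Single-exon rings such as those of Hipk3, Slc8a1 and Tulp4 are known from neurons and many other cells. Exon-intron circRNAs in the usual sense keep an intron between their exons and are known to stay in the nucleus. The annotated type alone does not show that a ring here keeps an intron. Intronic circRNAs can arise from intron lariats that escape the debranching enzyme Dbr1. Antisense and intergenic circRNAs lie outside annotated transcripts of that strand and are the least understood. All are counted by reads across the back-splice junction, the point where the downstream end meets the upstream start.

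The start of a ring should follow a splice acceptor, and the letters in front of it can be read where the ring starts near an annotated transcript start. RefSeq promoter windows (GRCm38) held the acceptor side of 12 of the 397 circRNAs: 7 single-exon, 4 exon-intron and 1 antisense. The 2 bases before the ring were AG on the ring's own strand in 12 of 12. The circRNA caller is not named, and if it required AG or took the strand from it, this count was fixed by the call. The same was true of 16 of 16 multi-exon circRNAs that could be read. Sequences are shown for the 4 with at least 10 junction reads and for Arhgap5, a GTPase-activating protein whose single-exon ring is well known. They show the acceptor at which each ring was called. Each runs 5′ to 3′ on the ring's strand, with 30 bases before the ring, 20 bases inside it, and the AG dinucleotide in capitals.
Single-exon ring of Chd9, chr8:90932219-90932268, plus strand: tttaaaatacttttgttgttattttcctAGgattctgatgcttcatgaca
Single-exon ring of Atp2b4, chr1:133753730-133753779, minus strand: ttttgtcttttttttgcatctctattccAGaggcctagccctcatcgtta
Single-exon ring of Klf7, chr1:64079315-64079364, minus strand: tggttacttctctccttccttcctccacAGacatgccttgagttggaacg
Single-exon ring of Arhgap5, chr12:52516049-52516098, plus strand: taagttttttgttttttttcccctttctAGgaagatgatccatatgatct
Antisense ring at Ppp2r3d, chr9:124423762-124423811, plus strand: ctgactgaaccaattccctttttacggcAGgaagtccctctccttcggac
The 20 bases before the AG held 16 pyrimidines (C or T) for Chd9, 17 for Atp2b4, 19 for Klf7, 19 for Arhgap5 and 14 for the antisense ring. The Chd9 ring began exactly at an annotated transcript start, and the antisense ring began 5 bases inside the annotated start of 4930526I15Rik, a long noncoding RNA of the same strand. These positions are in GRCm38. The submitters' notes name mm9, but the AG read at every acceptor in GRCm38 windows and 98.0% of the 2162 circRNAs with a placed host gene lay inside that gene's GRCm38 span.

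The 5 types carried 2266 of 11665 junction reads in the untreated library (19.4%, 18.7 to 20.2) and 1946 of 9433 in the Mn-treated library (20.6%, 19.8 to 21.5). Single-exon circRNAs held most of them, with 1483 and 1231 reads, or 12.7% (12.1 to 13.3) and 13.05% (12.4 to 13.7) of all junction reads. Exon-intron circRNAs held 427 and 384 reads, or 3.66% (3.33 to 4.02) and 4.07% (3.68 to 4.49). The single-exon and exon-intron shares thus had intervals that overlapped between the libraries. Intronic circRNAs held 107 and 69 reads, 0.917% (0.752 to 1.11) and 0.731% (0.570 to 0.925). Intergenic circRNAs held 140 and 89 reads, 1.20% (1.01 to 1.41) and 0.943% (0.758 to 1.16). Both were lower in the Mn-treated library by an amount within counting error, with ratios of shares of 0.797 (0.580 to 1.09) and 0.786 (0.596 to 1.03).

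Antisense circRNAs differed between the libraries beyond counting error. They held 109 reads, 0.934% (0.768 to 1.13), in the untreated library and 173 reads, 1.83% (1.57 to 2.13), in the Mn-treated library, a ratio of 1.96 (1.54 to 2.52). A single antisense circRNA at Ppp2r3d held 39.7% of the reads of its type, and without it the shares were 0.592% and 1.07%. The direction was therefore the same without that circRNA. The ratio of shares was 1.03 (0.951 to 1.11) for single-exon and 1.11 (0.966 to 1.28) for exon-intron circRNAs.

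**Figure D1:**
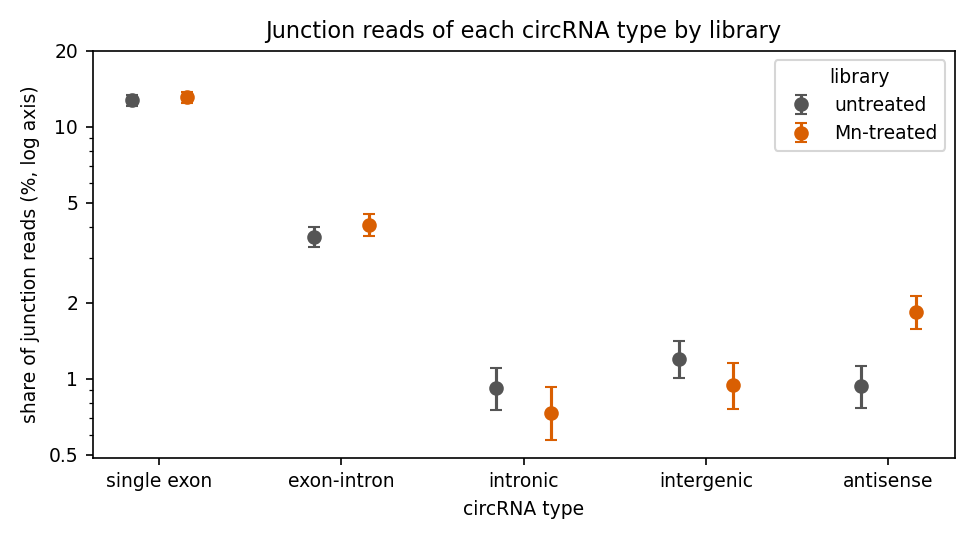
Share of all back-splice junction reads held by each circRNA type (percent, log axis) in the untreated and the Mn-treated library, with exact 95% binomial intervals as bars. The antisense share was 0.934% untreated and 1.83% Mn-treated with intervals apart, while the intervals of the other 4 types overlapped between the libraries.

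These shares are relative to each library's circRNA reads. The mRNA table held 13972437 untreated and 14606961 Mn-treated reads beside the 11665 and 9433 junction reads, so junction reads per mRNA read in the Mn-treated library were 0.774 times those in the untreated one, and every log2 ratio on the mRNA scale is lower by 0.37. On that scale the summed reads of single-exon circRNAs changed from a log2 ratio of 0.04 to -0.33 and those of exon-intron circRNAs from 0.15 to -0.22, whereas those of antisense circRNAs went from 0.97 to 0.60 and remained higher in the Mn-treated library.

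The types differed in how many reads a typical circRNA had. The median over both libraries was 8 reads for single-exon, 6 for intergenic and 4 for each of exon-intron, intronic and antisense circRNAs, against 5 for multi-exon circRNAs. At least 10 reads over both libraries, the minimum used here to compare a circRNA between libraries, were reached by 69 single-exon circRNAs (45.1%), 20 exon-intron (14.6%), 4 intronic (10.3%), 5 intergenic (13.9%) and 6 antisense circRNAs (18.8%). Of the multi-exon circRNAs, 23.2% reached it. At the other end, 34.4% of antisense, 28.2% of intronic and 24.8% of exon-intron circRNAs had only 2 reads, against 15.03% of single-exon circRNAs.

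Span, the distance between the back-splice ends in the genome, differed between the types in its median, though the ranges overlapped. Antisense, intronic and single-exon circRNAs were short, with medians of 245.5, 486 and 628 bases and middle ranges (lower to upper quartile) of 186 to 1252, 244 to 967.5 and 394 to 1093 bases. Exon-intron circRNAs were the longest, with a median of 12609 bases (5222 to 31763), near the multi-exon median of 9406.5. Intergenic circRNAs lay between, with a median of 3936 bases (1293 to 23436). Among rings seen in both libraries the medians were 709 bases for single-exon, 984 bases for the 7 intronic and 2223 bases for the 9 antisense ones. The order of these short types was thus reversed. Of the rings of at most 1000 bases, 4 of 30 intronic and 4 of 24 antisense ones were seen in both libraries, against 67 of 112 single-exon ones.

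The ranges of the types were wide and overlapped. Single-exon rings ran from 127 bases in Sbf1 to 5772 bases in Tcf20, a transcriptional coregulator. Exon-intron rings ran from 313 bases in Pdgfa, a growth factor, to 97988 bases in Pola1, the catalytic subunit of DNA polymerase alpha. Intronic rings ran from 150 bases in Ttc7 to 42664 bases in Syn2, a synaptic vesicle protein. Intergenic rings ran from 90 to 88997 bases, and antisense rings from 151 bases at Clpb to 17094 bases at Ppp2r3d.

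**Figure D2:**
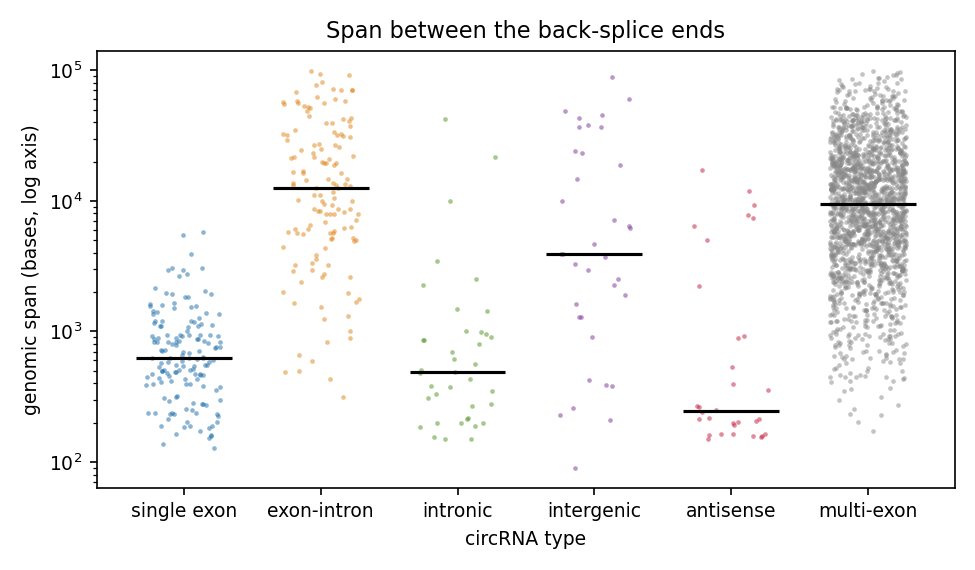
Genomic span of every circRNA by type (bases, log axis), 1 point per circRNA and a black line at the median, with multi-exon circRNAs for comparison. Antisense, intronic and single-exon circRNAs had medians of 245.5, 486 and 628 bases, and exon-intron circRNAs 12609 bases.

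The authors also give a spliced length, which is not defined in the sources used here. It equalled the span for all single-exon, intronic, intergenic and antisense circRNAs and for 32 of the 137 exon-intron circRNAs. The exon-intron median was 12609 bases of span and 5121 bases of spliced length. The multi-exon median was 625.5 bases of spliced length, close to the single-exon median of 628. Junction reads do not show what lies inside a ring, so these lengths rest on the authors' annotation.

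The 24 antisense circRNAs of at most 1000 bases had 45 untreated and 55 Mn-treated reads, whereas the 8 longer ones had 64 and 118. The ring at Ppp2r3d alone held 40 and 72 of the latter, and without it the 7 other long rings had 24 and 46. Among intronic circRNAs the 30 short ones had 79 and 50 reads and the 9 longer ones 28 and 19.

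The types also differed in detection in both libraries. Of all 2253 circRNAs, 44.3% had reads in both libraries, and the 5 types together were at 44.1% (175 of 397). Within them, 95 of 153 single-exon circRNAs were seen in both, 62.1% (53.9 to 69.8). The count was 52 of 137 for exon-intron circRNAs, 38.0% (29.8 to 46.6), and 12 of 36 for intergenic circRNAs, 33.3% (18.6 to 50.97). Antisense circRNAs followed with 9 of 32, 28.1% (13.7 to 46.7), and intronic circRNAs with 7 of 39, 17.9% (7.54 to 33.5). The single-exon interval lay above that of each of the other 4 types, whose own intervals overlapped with one another.

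Of all circRNAs, 730 (32.4%) were seen only in the untreated library, which had more junction reads but fewer mRNA reads, and 524 (23.3%) only in the Mn-treated one. Single-exon circRNAs had 37 seen only untreated and 21 only Mn-treated. The counts were 48 and 37 for exon-intron, 18 and 14 for intronic, and 13 and 11 for intergenic circRNAs. Antisense circRNAs had the opposite order, with 7 only in the untreated and 16 only in the Mn-treated library. Of these 16, none had more than 5 reads, and they included the antisense strands of mt-Nd5 (4 reads) and mt-Nd2 (3 reads), both mitochondrial genes, and of Arid2 (5 reads), a chromatin remodelling subunit.

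Much of the difference in detection went with reads. With 20 or more reads over both libraries every circRNA of the 5 types was seen in both (40 of 40). With 2 reads none could be (0 of 87), since each listed circRNA had at least 2 reads in the same library. With 3 to 4 reads reads in both libraries were seen for 7 of 25 single-exon, 12 of 42 exon-intron, 2 of 16 intronic, 2 of 7 intergenic and 0 of 9 antisense circRNAs. With 5 to 9 reads the share was 58.3% (21 of 36), 53.7% (22 of 41), 12.5% (1 of 8), 37.5% (6 of 16) and 50.0% (3 of 6) in the same order, against 51.8% for multi-exon circRNAs. At equal reads the intervals of all types overlapped in every class. Overlap alone does not show equal detection, and a difference between types at equal reads was not tested.

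**Figure D3:**
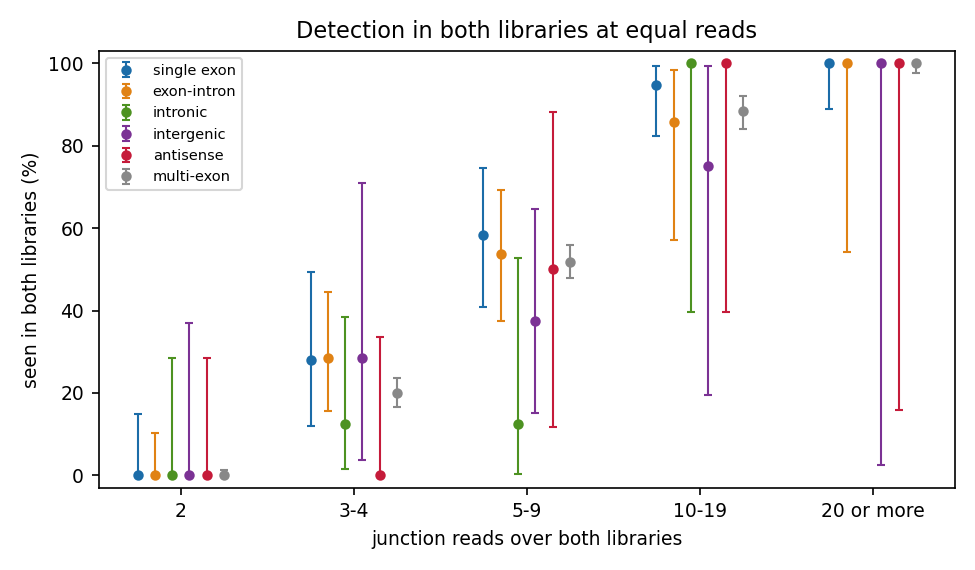
Percent of circRNAs with reads in both libraries, by class of total junction reads, for each type, with exact 95% binomial intervals as bars. The share was 100% at 20 or more reads for each type that had any, and the types' intervals overlapped within each class. It was 0% at 2 reads, a value fixed because each listed circRNA had at least 2 reads in the same library.

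A property of the table bears on these counts. Every circRNA had at least 2 reads in 1 of the libraries, and none had 1 read in each. Low counts were also missing beyond that: of the 29 circRNAs of the 5 types with 6 reads in all, 21 had 0 reads in 1 library, and 1 had a split of 5 and 1. In the whole table the same split was seen in 20 of 198 circRNAs with 6 reads, and 106 had 0 in 1 library. At 7 reads in all the 5 types did not show this: of 25 circRNAs, 4 had 0 reads in 1 library and 5 had 1 read. The whole table did, with 53 and 20 of 129. In the whole table a count of 0 at these totals therefore came more often than its neighbours. The part of this in the detection shares was not tested.

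Among the 104 circRNAs of the 5 types with at least 10 reads, 19 had a Mn-treated share at least 2-fold above the untreated one and 23 a share at least 2-fold below it, with 0.5 added to each count. Over all 534 circRNAs measured this way the shares were 18.2% higher and 22.7% lower, so the 5 types together lay near the background. On the mRNA scale the split was 11 higher and 34 lower, which moves the higher calls from 45.2% to 24.4% of all calls. This scale shifts every circRNA alike: over all measured circRNAs the split went from 97 higher and 121 lower to 65 and 163, or from 44.5% to 28.5% higher. By type the counts were 10 higher and 13 lower of 69 single-exon, 6 and 5 of 20 exon-intron, 0 and 2 of 4 intronic, 0 and 2 of 5 intergenic, and 3 and 1 of 6 antisense circRNAs. The median log2 ratio was 0.05 for single-exon circRNAs, equal to the 0.05 of all measured circRNAs.

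**Figure D4:**
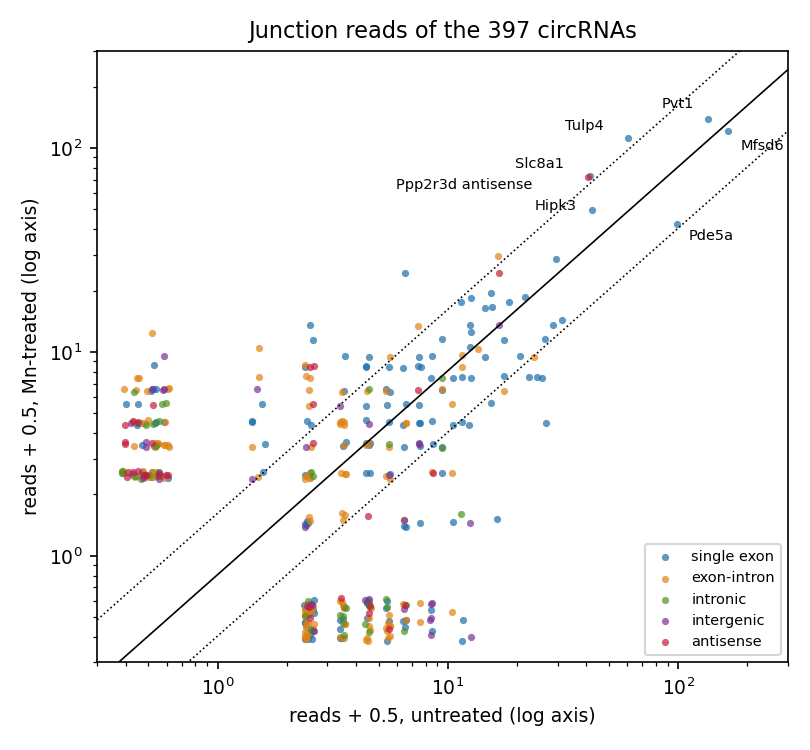
Junction reads of the 397 circRNAs in the untreated (x) and the Mn-treated (y) library, each with 0.5 added, on log axes, coloured by type; points are shifted by up to 0.12 reads so that equal counts can be seen. The solid line marks equal shares of the 2 libraries' totals and the dotted lines 2-fold differences: Tulp4, Slc8a1 and the antisense ring at Ppp2r3d lie above the upper dotted line, and Pde5a just inside the lower one.

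Single-exon circRNAs held the most abundant members. The ring of Mfsd6, a membrane protein of the major facilitator superfamily, had 164 reads untreated and 121 Mn-treated, a ratio of shares of 0.912 (0.715 to 1.16). It was the only circRNA of its host gene. The ring of Pvt1, a long noncoding RNA next to Myc, had 134 and 139 reads (1.28, 1.00 to 1.64) and spanned 318 bases at chr15:62107148-62107465.

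Of the 5 single-exon rings with the most reads, those of Tulp4 and Slc8a1 were more than 2-fold higher in the Mn-treated library. The ring of Tulp4, a tubby-like protein, had 60 and 111 reads, a ratio of 2.29 (1.66 to 3.19), at chr17:6137211-6139156. Slc8a1 encodes the sodium-calcium exchanger NCX1, and its ring at chr17:81647809-81649638 had 41 and 72 reads (2.17, 1.46 to 3.27). Their host genes had 751 and 1241 reads (Tulp4) and 607 and 827 reads (Slc8a1) in the mRNA table, log2 ratios of 0.66 and 0.38. Both intervals of the rings exclude equal shares.

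Pde5a, the cyclic GMP phosphodiesterase, went the opposite way. Its ring at chr3:122747889-122748477 had 98 reads untreated and 42 Mn-treated, a ratio of 0.530 (0.360 to 0.768), while its host gene had 253 and 329 reads, a log2 ratio of 0.31. Lower still was the ring of Gucy1a2, a subunit of the guanylate cyclase that makes cyclic GMP, with 16 reads and 1 (0.0773, 0.00184 to 0.497), beside 41 and 82 host reads. A further ring of Pik3r1, the regulatory subunit of phosphoinositide 3-kinase, had 26 and 4 reads beside 237 and 329 host reads.

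Other well-known single-exon rings were within counting error. The ring of Hipk3, a nuclear kinase, had 42 and 49 reads (1.44, 0.936 to 2.23), although its host gene had 218 and 422 reads. Zfp609, a zinc finger protein, had 7 and 3 ring reads (0.530, 0.0884 to 2.32). Arhgap5 had 6 and 1 (0.206, 0.00448 to 1.70). Cdyl, a chromodomain protein, appeared as a multi-exon circRNA in this table and so was not among the 153; Cdr1as was not analysed here.

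Further single-exon rings had large ratios at low counts. That of Tcf20 had 2 and 13 reads (8.04, 1.82 to 73.4), and that of Plcxd3, a phospholipase-related protein, 2 and 11 (6.80, 1.48 to 63.1). Rest, the silencer of neuronal genes, gave a ring with 11 reads untreated and 0 Mn-treated. With 3 counts put in place of the 0 it was 2.97-fold lower, a value that leaves out the counting error of the 11 reads. Their intervals are wide: the lower ends for Tcf20 and Plcxd3 lie below 2-fold.

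Malat1, an abundant nuclear long noncoding RNA, gave 2 single-exon rings with 10 and 5 reads in all.

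Of the 153 single-exon rings, 75 were the only circRNA of their gene in the table and 78 had others beside them. Among the 12 with the most reads, 4 (Mfsd6, Hipk3, Kat6b and Shoc2) were the only one. Pvt1 had 7 further circRNAs, but these held 19 and 18 reads beside the 134 and 139 of the ring itself. Tulp4 had 3 further ones with 5 and 11 reads. Over the whole type, 57 came from a gene that also had a multi-exon circRNA, and 34 shared a back-splice end with another circRNA. Names beginning with mm9_circ were given to 38 single-exon rings (24.8%), 5 exon-intron rings, 1 intergenic ring and no intronic or antisense ring, against 7.33% of multi-exon circRNAs.

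Rings with neighbouring donor ends were called for Clvs1, which encodes clavesin 1, a lipid-binding protein of neurons. The bases at these donor ends could not be read, so use of separate donor sites was not tested. A ring at chr4:9281388-9282008 had 31 reads untreated and 14 Mn-treated, and one ending 4 bases further on had 6 and 24. The log2 ratios were -0.81 and 2.22, in opposite directions. Summed, the rings had 37 and 38 reads, a log2 ratio of 0.34. Clvs1 host reads were 373 and 363.

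Such near-identical rings, with both ends within 10 bases, were found as 6 pairs with at least 1 of the 5 types, of 11 in the table. In each pair 1 end was the same. The ends that differed lay 3 bases apart at the acceptor side in 4 pairs (Bmpr1a, Cdkl3, Samd4 and Zfp292) and 4 bases apart at the donor side in 2 (Clvs1 and Gm47243). For Cdkl3, a protein kinase, the rings had 23 and 9 reads and 2 and 7 reads. Summed, the Cdkl3 rings had 25 and 16 reads, a log2 ratio of -0.32.

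A cluster of 11 circRNAs, 7 single-exon and 4 antisense, came from the annotated gene Gm26917 on chromosome 17. Together they had 73 reads untreated and 29 Mn-treated. The ring with the most reads, at chr17:39844698-39845193, had 24 and 7, a ratio of 0.361 (0.131 to 0.863), and another had 11 and 0. Not all went this way: rings at the same locus had 7 and 9 reads (1.59, 0.527 to 5.02), 7 and 6 (1.06, 0.294 to 3.68), and 0 and 2. All 11 lay between chr17:39843775 and 39845657, just before Rn18s-rs5, a ribosomal RNA pseudogene that RefSeq places at chr17:39846354-39848202. Rings of so small a region share their locus and are not independent members. Ribosomal sequence has many near-identical copies, so the placement of these reads is uncertain.

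Exon-intron circRNAs were led by Gm47243, a predicted gene on chromosome 19 with 6 of them and 39 and 52 reads in all. The largest, at chr19:12513658-12523645, had 16 reads untreated and 29 Mn-treated, a ratio of 2.24 (1.18 to 4.42). A further 2 of the 6 were seen in the Mn-treated library only, with 6 and 2 reads, and another had 7 reads untreated and 0 Mn-treated. The members of this gene thus went in both directions.

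Among the other exon-intron rings, Rps6kc1, a ribosomal S6 kinase family member, had 17 and 6 reads (0.436, 0.141 to 1.16). A ring of Gm15398 had 0 and 12 reads (lower limit of the ratio 3.44). Bbs9, a part of the BBSome of cilia, had 10 and 0 (upper limit of the ratio 0.552). Pcdha11, a clustered protocadherin, had 1 and 10 reads (12.4, 1.76 to 537), beside 18 and 36 host reads. Foxp1, a transcription factor, gave 3 rings, with 5 reads untreated and 13 Mn-treated in all. Other genes with 3 rings of the 5 types were Cacna1c (24 and 13 reads in all), Samd4, an RNA-binding repressor of translation (18 and 25), and Rims2, a protein of the presynaptic active zone (12 and 5).

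Exon-intron circRNAs shared their ends with other rings more than the rest. Of 137, 59 (43.1%) used a start or end that another circRNA also used, and 32 shared it with a multi-exon circRNA. The share was 22.2% for single-exon, 22.2% for intergenic, 6.25% for antisense and 2.56% for intronic circRNAs, against 35.6% for multi-exon circRNAs. Pvt1 shows the pattern: its 3 exon-intron rings each used an end of the 318-base single-exon ring, and they held 3 and 1, 2 and 2, and 2 and 3 reads. Of the exon-intron rings with a placed host, 95 of 123 lay inside the host's GRCm38 span, against 144 of 144 single-exon rings. The others did not lie wholly inside that span. Whether they reached beyond the host or belong to another gene was not tested. Long noncoding RNAs were the host of 8 exon-intron rings, including Pvt1 and Lncpint.

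Intronic circRNAs were rare and thinly covered. The ring from Ncam1, a neural cell adhesion molecule, had 9 and 7 reads (0.962, 0.304 to 2.90), although its host gene had 1810 and 4208 reads. Cables2 had 11 and 1 (0.112, 0.00261 to 0.773), Raet1e, which encodes a ligand of a natural killer cell receptor, 9 and 3 (0.412, 0.0718 to 1.65), and Cacna1c, the L-type calcium channel Cav1.2, 4 and 6 (1.85, 0.440 to 8.94). Fyttd1, an mRNA export factor, had 5 and 3 reads. The Raet1e host was listed at 0 reads in both libraries, so its 21608-base ring had no matching linear reads in the mRNA table.

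Only 1 intronic ring shared an end with another circRNA: that of Cacna1c ended where a 54939-base exon-intron ring of the same gene also ended, and the 2 had 4 and 6, and 10 and 5 reads. The 39 intronic rings came from 38 genes, so almost every gene gave 1. The host genes had a median of 526.5 reads untreated and 736.5 Mn-treated, close to the single-exon hosts at 407.5 and 562.

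Intergenic circRNAs were compared with RefSeq genes of GRCm38 on either strand. Of the 36, 13 overlapped a RefSeq gene that the authors' annotation did not use, and 6 lay inside one. The remaining 23 lay 171 to 189188 bases from the nearest gene, with a median of 28715. Of the 5 rings with at least 10 reads, none was 2-fold or more higher in the Mn-treated library and 2 were 2-fold or more lower.

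The intergenic ring with the most reads, at chrX:66792833-66796572 on the minus strand, had 16 and 13 reads (1.00, 0.445 to 2.23). It lay among microRNA genes: Mir741 ended 232 bases 5′ of it and Mir471 began 171 bases 3′ of it, all on the minus strand. RefSeq lists 19 hairpins in this cluster, each on that strand. A second intergenic ring on the same strand, at chrX:66850413-66854344, had 6 and 1 reads and lay 11287 bases 5′ of the last hairpin. The mature microRNAs on each side, and the most abundant one of the cluster, are shown with their seeds (bases 2 to 8) in capitals, since their hairpins are the nearest annotated genes.
mmu-miR-741-3p: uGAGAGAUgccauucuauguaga
mmu-miR-471-5p: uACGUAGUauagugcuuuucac
mmu-miR-881-3p: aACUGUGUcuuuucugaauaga
In the small RNA libraries miR-741-3p had 77399 reads untreated and 71717 Mn-treated, and miR-471-5p had 40983 and 30213. miR-881-3p, from a hairpin 5371 bases 5′ of the ring, had 2084986 and 1667451 reads, 19.9% and 16.8% of the reads in the microRNA table. The 3 seeds differ from each other. The ring's junction reads and the microRNA reads come from different libraries and were not set against each other.

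**Figure D5:**
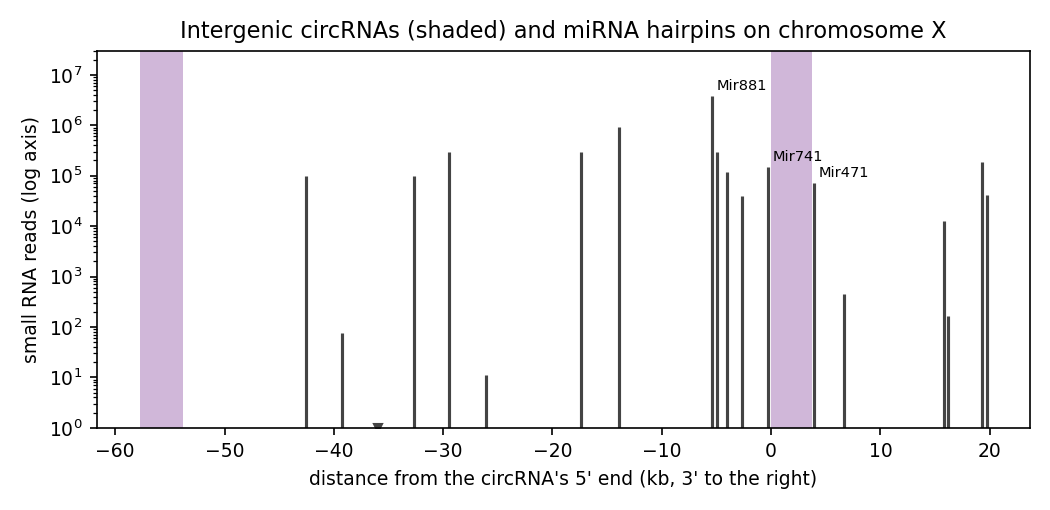
Small RNA reads of each microRNA hairpin (bars, the sum of both libraries for its more abundant arm, log axis) against distance from the 5′ end of the intergenic ring (kb, 3′ to the right), with the 2 intergenic rings shaded. A triangle marks a hairpin with no read entry of its own. Each mature microRNA was drawn at a single hairpin, so the bars of the Mir465 copies do not show reads per copy. Mir465c-2 has a triangle because miR-465c-5p (147743 untreated and 148395 Mn-treated reads) was drawn at Mir465c-1. The ring with 16 and 13 junction reads fills the gap between Mir741 and Mir471.

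Other intergenic rings went together in pairs. Rings at chr8:41682056-41685995 (12 and 0 reads, upper limit of the ratio 0.445) and chr8:41682056-41771052 (8 and 0 reads, upper limit 0.724) share an acceptor. Neither was seen in the Mn-treated library. Those at chr15:26933986-26937242 (12 and 1 reads, ratio 0.103, 0.00241 to 0.696) and chr15:26914087-26937242 (3 and 5 reads) share a donor, and they went in opposite directions. On chromosome 4, a ring of 59782 bases with 7 and 3 reads and one of 1296 bases with 8 and 0 reads share an acceptor, and both overlap the noncoding gene Gm12610 on its own strand. The remaining ring with 10 reads, at chr13:102131499-102146294, had 7 and 3. The use of 1 acceptor or donor by several rings was thus seen at 4 intergenic sites.

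Antisense circRNAs were led by the ring that the authors place opposite Ppp2r3d, a regulatory subunit of protein phosphatase 2A. At chr9:124423792-124440885 it had 40 reads untreated and 72 Mn-treated, a ratio of 2.23 (1.49 to 3.36). Ppp2r3d, its host gene in the authors' annotation, had 321 and 300 reads, a log2 ratio of -0.16. The RefSeq genes that the ring overlapped were 4930526I15Rik and Gm20783, and Ppp2r3d was not among them. On the strand that the authors give, the AG before it lies at the start of 4930526I15Rik, a long noncoding gene that the authors' type does not take into account.

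The 3 rings opposite Nav3, a neuron navigator protein, had 18 reads untreated and 31 Mn-treated in all. The largest had 16 and 24 (1.85, 0.945 to 3.74), and a smaller one shared its donor end. Opposite Tenm2, a teneurin that connects neurons across synapses, a ring had 2 and 8 reads (4.95, 0.987 to 47.8), and it overlapped Gm42071 on its own strand. Opposite Tcf25, a ring had 2 and 8 reads. Of the 32 antisense rings 4 overlapped a RefSeq gene of their own strand, those at Ppp2r3d, Tenm2, Esyt1 and Hspa5.

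The host genes of the 5 types differed little from those of multi-exon circRNAs. Of 306 named hosts, 292 were in the mRNA table and 286 had at least 20 reads, with a median log2 ratio of 0.35 on mRNA totals, against 0.34 for multi-exon hosts and 0.18 for all genes. Of these 286, 14 were up by 2-fold or more with manganese and 2 were down by as much. Over all mRNA genes with 20 reads, 8.96% passed 2-fold in either direction. By type, 7 of 135 single-exon, 0 of 98 exon-intron, 3 of 36 intronic and 4 of 26 antisense hosts were 2-fold or more higher. The count was 61 of 1229 for multi-exon hosts. Antisense hosts had median reads of 914 untreated and 1386 Mn-treated, against 413 and 574 for multi-exon hosts.

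Genes of circRNA formation and decay were looked up as a list. Of 25, 24 were in the mRNA table and 23 had at least 20 reads. G3bp1, a stress granule protein, and Ago2, the microRNA effector, were at least 1.5-fold higher, with log2 ratios of 0.72 and 0.61. Upf1, the RNA helicase of nonsense-mediated decay, was at least 1.5-fold lower, at -0.69. Over all genes 21.6% were higher and 5.97% lower by that measure. The median of the list was 0.11. Dbr1 had 164 and 189 reads, and Qk, an RNA-binding protein known to promote circularisation, had 325 and 363.

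The libraries carried the markers of the labelled cells. Summed reads of 13 neuroblastoma markers were 43609 and 44461, of which Tubb3 alone gave 33400 and 33715, and Nefm was at 0. Among the other markers, Th had 88 and 173 reads, Isl1 252 and 143, and Ddc 4 and 6. The 5 glial markers summed to 204 and 328 reads, 4 fibroblast markers to 50 and 58, and 4 myeloid markers to 4 and 13. In bulk RNA a smaller number of cells and less RNA per cell cannot be told apart.

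In the authors' deposited table, 56 of the 397 circRNAs were marked significant, against 16.6% of all circRNAs, and 7 had a false discovery rate under 0.05, against 1.11%. Its values rest on 1 library per group, so they compare libraries and not conditions. The 7 in the authors' deposited table were the rings of Tulp4, Slc8a1, Clvs1, Gucy1a2 and Pik3r1, the exon-intron ring of Gm15398 and the antisense ring at Ppp2r3d. By type the authors' deposited table marked 22 single-exon, 16 exon-intron, 4 intronic, 12 intergenic and 2 antisense circRNAs.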

How the data were processed

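StringTie, Bowtie2, fastp 0.18.0 and the mm9 build are named in the submitters' processing notes, without their roles; which circRNA caller and filters were used is not given in the sources used here. Back-splice junction reads were deposited by the authors as whole counts and as RPM, which equal each count over its column total. Their log2 ratios, p-values and false discovery rates were deposited with the same table, with no test named. The mRNA table gives estimated counts (rounded here) beside deposited FPKM, and the microRNA table gives counts beside deposited TPM; FPKM and TPM were not used.

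Depth was 11665 and 9433 junction reads, so 3 reads, the limit that a count of 0 allows, were 0.0257% and 0.0318% of a library. Shares were taken over column totals, with exact Clopper-Pearson 95% intervals. Ratios of shares came from raw counts with exact conditional binomial 95% intervals, and log2 ratios from counts with 0.5 added. The minimum for a comparison was a sum of 10 reads for a circRNA and 20 for a gene, and 2-fold was the size called different. Named circRNAs were the 5 with most reads in each type, the 5 highest and 5 lowest log2 ratios, the longest and shortest of each type, genes with at least 3 members, and 7 known single-exon rings (1 circRNA so named is not reported here); Pik3r1, Tcf25, the near-identical and end-sharing rings, Arid2 and the mitochondrial ones were chosen after their values were seen. Members and lists were chosen with earlier results of these data known. Symbols, positions and sequences came from RefSeq tables of GRCm38. The calculations were tested on simulated data and run with Python 3.11.15, pandas 2.3.3 and scipy 1.17.1.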

Additional observations from a re-analysis of the deposited data

How the results depend on the processing

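No paired analysis was possible because each group has 1 library. The log2 ratios of the 73 named circRNAs were recomputed with a pseudocount of 1, with median-ratio scaling and with the authors' deposited log2 values. They stayed within their own 95% intervals, and none whose interval excluded equal shares changed sign. For a circRNA with 0 reads in 1 library the interval has no limit on that side, so this check could not fail there. The authors' values for such rings were far larger: -19.8 against -4.22 for Rest and 20.3 against 4.95 for Gm15398. Without the circRNA with most reads of each type, the single-exon shares were 11.3% and 11.8% and the antisense shares 0.592% and 1.07% (untreated and Mn-treated). With mRNA totals as the scale, the summed log2 ratios were -0.33 for single-exon, -0.22 for exon-intron and 0.60 for antisense circRNAs, and 11 circRNAs were 2-fold higher. With at least 5 reads, detection in both libraries was 83.8% for single-exon, 65.6% for exon-intron, 41.7% for intronic and 75% for antisense circRNAs; where 2 reads were needed in a library, single-exon detection was 52.9%. Among circRNAs seen in both libraries the median span was 984 bases for intronic and 2223 bases for antisense circRNAs. With a minimum of 5 reads, 54 circRNAs were 2-fold higher and 62 lower, and with 20 reads 6 and 7, as more or fewer were compared. The other 54 recomputed values of the comparisons, among them those without the Gm26917 locus and with near-identical rings summed (both chosen after seeing the data), stayed within the 95% interval of the value or, for counts of circRNAs, within 1.5 times. Depth limits the intronic, intergenic and antisense types, of which 4, 5 and 6 circRNAs reached 10 reads.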
